A study of Mus musculus with 23 samples.

Results

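Histone modifying enzymes add or remove methyl and acetyl groups on histone tails. The set described here was taken from the gene table by name: every symbol formed by Kmt, Kdm, Hdac, Setd, Sirt, Kat or Prmt and a digit, together with Ezh1, Ezh2, Ehmt1 and Ehmt2. The Y-linked Kdm5d was left out, which left 72 symbols, and a member had to reach at least 0.5 RPM, reads per 1000000 reads, in at least 4 of the 23 libraries. Of these, 70 were kept from a table of 35322 genes, of which 16795 passed the same filter. Kdm4d and the transcript Kdm6bos were not kept, since their highest values in any library were 0.134 and 0.1004 RPM. The members were 20 lysine methyltransferases, 16 lysine demethylases, 11 zinc-dependent deacetylases, 7 sirtuins, 8 lysine acetyltransferases and 8 arginine methyltransferases. All 70 passed the filter through the saline libraries alone, and 65 of them reached 0.5 RPM in every library.

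Writers of a mark (methyltransferases, acetyltransferases) and its erasers (demethylases, deacetylases) act in opposite directions on the same residue, and the balance of both sets how open chromatin is around a gene. Methylation of H3K4 and H3K36 and acetylation accompany active genes, while methylation of H3K9, H3K27 and H4K20 accompanies silent chromatin. Many of these enzymes also modify proteins other than histones, and mRNA level is no measure of enzyme activity or of the marks themselves.

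RNA-Seq was performed on lung from BALB/c mice aged 13 weeks, the offspring of dams that received either PM2.5 (PM) or saline (Sham) by the nose from before mating until weaning. Part of each cohort was sensitised to ovalbumin (OVA) with alum and challenged with nebulised OVA to induce allergic airways disease (AAD), and the rest received saline, which the labels call PBS. The groups were Sham (n = 7), PM (n = 7), Sham-OVA (n = 5) and PM-OVA (n = 4). The labels name the tissue as lung (RML), while the methods of the study speak of the right lower lobe of female offspring. Dam identity and litter size were covariates for lung function in the study, and neither is tied to a library in the labels, so p-values measure the spread between libraries, and littermates may be among them.

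The 14 saline libraries held between 13089691 and 17393579 reads on genes and the 9 OVA libraries between 2298645 and 12355561, so that depth and OVA challenge cannot be told apart by design. The shallowest were replicate 3 of Sham-OVA and replicates 3 and 4 of PM-OVA, where 1 read was worth 0.311, 0.133 and 0.182 RPM. Sham replicate 1 had 0.289 RPM of Xist and 123 RPM of the Y-linked Ddx3y, which was listed at 0 in Sham replicates 2 to 5. The alveolar type 1 and type 2 markers that define lung were present in every library (summed RPM of at least 3394 and 14110). Bulk RNA was measured, so that fewer cells of a type and less RNA per cell cannot be told apart in any result.

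After OVA challenge more of the enzymes were lower than higher, in both cohorts. In Sham-OVA against Sham, 41 of 70 members were lower and 8 were higher at an adjusted p under 0.05, where 47.5% of all genes tested were lower and 20.6% higher. In PM-OVA against PM, 40 members were lower and 6 higher, where 45.2% of all genes tested were lower and 20.1% higher. The median log2 fold change of the members was -0.71 in Sham offspring and -0.65 in PM offspring, beside -0.48 and -0.43 for all genes tested. In both cohorts the share of lower members lay above that of all genes and the share of higher members below it, and most genes shifted downwards with the members.

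The split into higher and lower depends on how libraries are scaled. With median-of-ratios scaling, 35 members were lower and 16 higher in Sham offspring, where 38.1% and 29.2% of all genes were, and 33 lower and 14 higher in PM offspring, where 35.8% and 28.9% were. That scaling moved the median of all genes to -0.17 and -0.13. With quantile normalisation, 36 were lower and 16 higher in Sham offspring (34.6% and 32.7% of all genes), and 30 and 16 in PM offspring (32.4% and 31.5%), with medians of all genes of -0.05 and -0.02. After each library was corrected for its dependence on transcript length and GC content, called length correction from here on, 26 members were lower and 20 higher in Sham offspring (31.7% and 31.6% of 16535 genes), and 27 and 17 in PM offspring (29.6% and 29.4%). Under all 4 scalings and in both cohorts, the same 6 members were higher (Setd4, Kmt5c, Ehmt2, Hdac3, Hdac9 and Sirt7) and the same 18 were lower (Kmt2b, Kmt2c, Kmt2e, Setd1b, Setd7, Setd3, Setd5, Kmt5a, Kmt5b, Kdm5a, Kdm2b, Kdm3b, Kdm4b, Hdac1, Hdac5, Sirt1, Kat2b and Kat8). The share of all genes that met this joint rule was not counted, so these lists do not set the members apart from other genes. The text gives log2 fold changes of RPM with their standard error (SE).

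At the stricter threshold used in the study (adjusted p under 0.000001 and absolute log2 fold change above 1), 5 members were lower in Sham offspring, Setd3, Kdm2b, Kat2b, Kdm3b and Kmt2b, and 0 were higher, where 2.53% and 1.98% of all genes tested passed. The study applied this threshold to DESeq2 on raw counts. Here it was applied to limma on log2 RPM, so these counts are not those of the study's test. In PM offspring, where 0.0238% of all genes were lower and 0.262% higher at that threshold, limma called 0 members, although 40 were lower and 6 higher at an adjusted p under 0.05. All 38 members lower in both cohorts make up 92.7% of those lower in Sham and 95% of those lower in PM offspring, and the 6 higher in both make up 75% and 100%. The Sham and PM cohorts share no library, and 67 of 70 members had the same sign of change in both. Agreement between the cohorts was not counted over all genes, and in both cohorts the OVA libraries were shallower than the saline ones. It can therefore not be read as particular to the members. In Sham offspring, 34 members were lower and 4 higher without any overlap between OVA and saline libraries, where 35% and 13.2% of all genes tested were. In PM offspring these counts were 30 and 6, where 28.6% and 13.3% of all genes were.

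**Figure D1:**
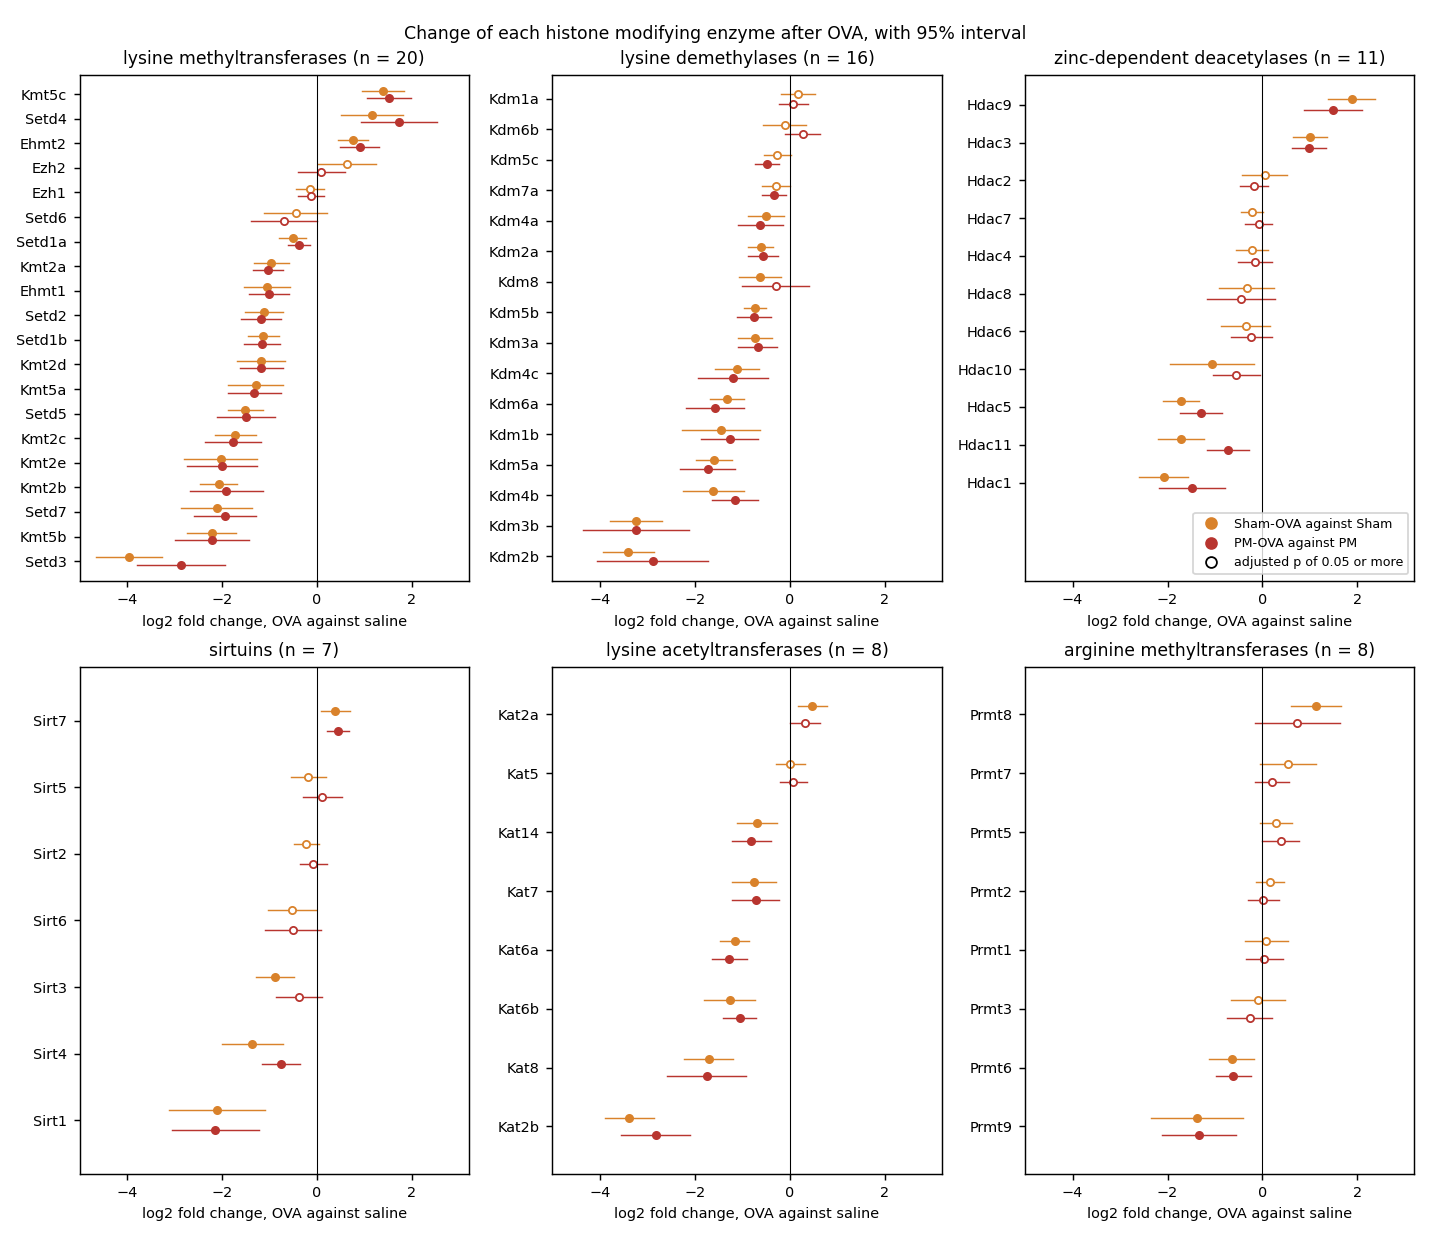
The 70 members by enzyme class, where each point is the log2 fold change of RPM in Sham offspring (orange) or PM offspring (red) with its 95% interval, and open points did not pass an adjusted p of 0.05. Lysine methyltransferases, demethylases and acetyltransferases lie mostly left of 0, and arginine methyltransferases lie around it.

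The classes differed in where their members lay. Median log2 fold changes in Sham and PM offspring were -1.12 and -1.17 for lysine methyltransferases, -0.96 and -0.94 for lysine acetyltransferases, -0.73 and -0.71 for demethylases, -0.52 and -0.37 for sirtuins and -0.33 and -0.24 for zinc-dependent deacetylases. Arginine methyltransferases had medians of 0.12 and 0.03, and 2 of 8 lay below the median of all genes in each cohort, against 14 of 20 lysine methyltransferases. With quantile normalisation the order at both ends was the same, with -0.76 and -0.78 for lysine methyltransferases and 0.53 and 0.42 for arginine methyltransferases, whereas with length correction the classes drew together, at -0.32 and -0.46 against 0.26 and 0.12, and zinc-dependent deacetylases stood at 0.26 and 0.30. These are descriptions of the members in each class, and the difference between classes was not tested.

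The H3K4 methyltransferases Kmt2a, Kmt2b, Kmt2c, Kmt2d, Setd1a, Setd1b and Setd7, and Kmt2e, a relative known as a reader of H3K4 methylation, were lower in RPM. All 8 were lower in both cohorts, beside 47.5% and 45.2% of all genes, with a median log2 fold change of -1.45 in Sham and -1.47 in PM offspring. Their summed level was 784 to 1258 RPM in Sham and 943 to 1085 RPM in PM libraries, against 262 to 488 RPM in Sham-OVA and 285 to 657 RPM in PM-OVA libraries, so that saline and OVA libraries did not overlap. Of the 8, Setd1a was the exception under other scalings, since it was not called with any of them, and 54.0% of its 50-base stretches are shared with the overlapping gene Gm49388. With length correction Kmt2a (0.21 and 0.07) and Setd1a (0.14 and 0.21) turned positive without a call, and Kmt2d was not called in Sham offspring.

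Kmt2d, which deposits H3K4 monomethylation at enhancers and had the highest RPM of its class, ranged over 159.8 to 329 RPM (median 241) in Sham and 196 to 242 RPM (median 227) in PM. It had 127, 135, 53.8, 134 and 99.6 RPM in Sham-OVA and 174, 104, 79.3 and 66.5 RPM in PM-OVA, a log2 fold change of -1.18 ± 0.24 (SE) in Sham offspring and -1.18 ± 0.21 in PM offspring. The OVA libraries lay below the saline libraries of their cohort, and PM-OVA replicate 1 came nearest to them. Kmt2b, a relative that acts at promoters, fell by 2.07 ± 0.18 in Sham offspring (adjusted p = 3.72e-07) and by 1.91 ± 0.36 in PM offspring (adjusted p = 0.000666). Per kilobase of the longest transcript, Ehmt2, Setd5, Kmt2e and Ezh1 had the highest levels of the class in Sham libraries, at 24.3, 23.6, 22.1 and 20.4 RPM per kb, and Kmt2d came ninth at 12.3 RPM per kb.

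The H4K20 enzymes moved apart. Kmt5b and Kmt5c are paralogs that both place di- and trimethylation on H4K20, and Kmt5a places the first methyl group. Kmt5c was 29.1 to 64.3 RPM (median 43.9) in Sham and 34.1 to 48.5 RPM (median 38.1) in PM, and rose to 94.4, 107, 181, 105 and 104 RPM in Sham-OVA and 65.2, 106, 161 and 142 RPM in PM-OVA. No OVA library reached down to a saline one, and the log2 fold changes were 1.39 ± 0.21 (adjusted p = 4.03e-05) and 1.52 ± 0.21 (adjusted p = 0.000141). Kmt5b was 101 to 129 RPM (median 117) in Sham and 93.2 to 128 RPM (median 119) in PM, and dropped to 35.4, 25.7, 10.3, 32.03 and 30.6 RPM in Sham-OVA and 61.3, 34.4, 14.6 and 11.1 RPM in PM-OVA. Its OVA libraries all lay below the saline ones, with log2 fold changes of -2.22 ± 0.24 (adjusted p = 2.33e-06) and -2.21 ± 0.36 (adjusted p = 0.00028). Kmt5a was near the limit of detection, at 0.814 to 2.34 RPM in Sham and at most 0.941 RPM in any OVA library, and was lower in both cohorts.

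The ratio of such paralogs within a library, with 0.5 RPM added to each, hardly depends on library scaling. The log2 ratio of Kmt5c to Kmt5b was between -1.99 and -0.64 in the saline libraries and between 0.09 and 4.08 in the OVA libraries. These ratios are of RPM not divided by length, so they show the change between libraries and do not rank the levels of both mRNAs. For Ehmt2 to Ehmt1, which form one H3K9 methyltransferase complex known as G9a and GLP, the ratio was 0.66 to 1.03 in saline and 1.44 to 4.39 in OVA libraries. For the acetyltransferases Kat2a to Kat2b it was 0.97 to 2.99 and 3.59 to 6.35, and for the deacetylases Hdac9 to Hdac5 it was -4.03 to -2.78 and -1.80 to 1.34. These 4 pairs did not overlap between OVA and saline libraries, whereas Ezh2 to Ezh1, Kdm6b to Kdm6a, Hdac2 to Hdac1 and Kat6b to Kat6a did. In 3 of these 4 pairs the enzyme named first has the shorter transcript (Kmt5c 2774 bases and Kmt5b 6130, Ehmt2 4026 and Ehmt1 5953, Kat2a 3269 and Kat2b 4653), and Hdac9 has the longer one, 7940 bases beside 5406 for Hdac5. The pairs were picked after their values were seen, and their ratios were not tested.

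**Figure D2:**
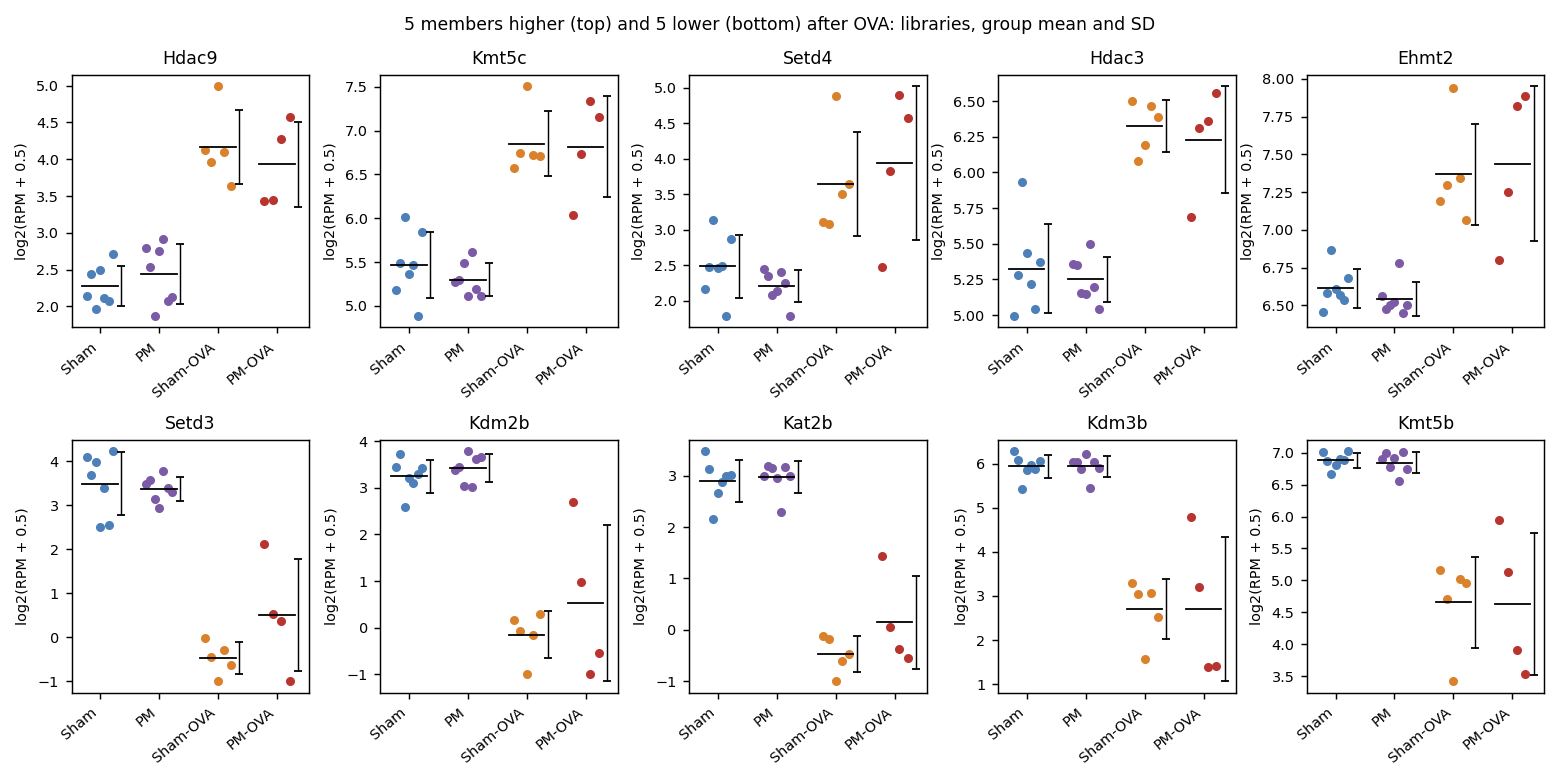
Level of 5 members that were higher and 5 that were lower after OVA, as log2(RPM + 0.5) in each of the 23 libraries, with the group mean (line) and SD (bar at the right). In the lower row, PM-OVA replicate 1, the highest red point, lies nearest to the saline libraries for every gene shown, and in the upper row it is the lowest red point.

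Ehmt2 was 87.4 to 116 RPM (median 95.4) in Sham and 87.1 to 109 RPM (median 90.1) in PM, against 145, 157, 245, 162 and 134 RPM in Sham-OVA and 111, 152, 225 and 237 RPM in PM-OVA. It rose by 0.75 ± 0.15 in Sham offspring (adjusted p = 0.000446) and 0.90 ± 0.19 in PM offspring (adjusted p = 0.00129), with no overlap within a cohort, while Ehmt1 fell by 1.05 ± 0.23 and 1.01 ± 0.19. The fall of Ehmt1 was not called after length correction. Setd4, a SET domain protein of low level, was 2.96 to 8.28 RPM (median 5.07) in Sham and 2.96 to 4.95 RPM (median 4.28) in PM. It was 8.13, 7.97, 28.9, 10.8 and 12.1 RPM in Sham-OVA, where 2 libraries overlapped the highest Sham library, and 5.04, 13.7, 29.3 and 23.4 RPM in PM-OVA, where all 4 lay above PM. Its log2 fold changes were 1.16 ± 0.31 and 1.73 ± 0.37, and without the 3 shallowest libraries they were 0.85 and 0.94.

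Setd3, which methylates a histidine of actin, had the largest fall of all members in Sham offspring. Its level was 5.14 to 18.2 RPM (median 12.4) in Sham and 7.18 to 13.2 RPM (median 10.02) in PM. In Sham-OVA it was 0.486, 0.226, 0, 0.319 and 0.146 RPM, from 7, 3, 0, 4 and 2 reads, and in PM-OVA 3.83, 0.927, 0.797 and 0 RPM, from 57, 12, 6 and 0 reads. The 0 in Sham-OVA replicate 3 allows up to 0.932 RPM, the worth of 3 reads, and the 0 in PM-OVA replicate 4 up to 0.545 RPM, for counting error only. The OVA libraries lay below all saline libraries, at -3.97 ± 0.33 in Sham offspring (adjusted p = 1.9e-07) and -2.87 ± 0.43 in PM offspring (adjusted p = 0.000186), and 15.1% of the gene's 50-base stretches are shared with another gene. In PM offspring the log2 fold change was -2.06 without the 3 shallowest libraries.

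Promoters of members that moved in opposite directions are shown so that their base composition can be compared. They are windows of 300 bases (250 before and 50 after the most upstream RefSeq start, GRCm38.p6, in the direction of the gene), with capitals for CCAAT, the NF-Y motif, and GGGCGG, the Sp1 motif, on either strand. Kmt5c (chr7:4739877-4740176, plus strand) and Ehmt2 (chr17:34898224-34898523, plus strand) were higher after OVA, and Setd3 (chr12:108179235-108179534, minus strand) and Kat2b (chr17:53566721-53567020, plus strand) were lower.
Kmt5c: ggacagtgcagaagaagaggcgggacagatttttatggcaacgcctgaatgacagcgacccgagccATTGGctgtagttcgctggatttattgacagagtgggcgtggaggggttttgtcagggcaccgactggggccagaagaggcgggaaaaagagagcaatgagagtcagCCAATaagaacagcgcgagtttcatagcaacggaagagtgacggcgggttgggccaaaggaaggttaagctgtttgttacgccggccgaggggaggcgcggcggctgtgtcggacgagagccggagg
Ehmt2: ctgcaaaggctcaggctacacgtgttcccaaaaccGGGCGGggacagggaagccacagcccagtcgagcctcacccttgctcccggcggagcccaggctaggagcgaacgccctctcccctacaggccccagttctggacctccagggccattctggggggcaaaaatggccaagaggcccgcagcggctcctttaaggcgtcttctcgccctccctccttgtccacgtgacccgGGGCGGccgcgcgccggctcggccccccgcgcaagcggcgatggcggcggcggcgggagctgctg
Setd3: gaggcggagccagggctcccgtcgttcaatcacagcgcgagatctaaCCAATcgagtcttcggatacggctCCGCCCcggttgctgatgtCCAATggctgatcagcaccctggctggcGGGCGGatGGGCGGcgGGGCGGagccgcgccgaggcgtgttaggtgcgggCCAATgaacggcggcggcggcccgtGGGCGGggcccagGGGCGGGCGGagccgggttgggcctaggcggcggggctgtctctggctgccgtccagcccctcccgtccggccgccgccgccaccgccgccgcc
Kat2b: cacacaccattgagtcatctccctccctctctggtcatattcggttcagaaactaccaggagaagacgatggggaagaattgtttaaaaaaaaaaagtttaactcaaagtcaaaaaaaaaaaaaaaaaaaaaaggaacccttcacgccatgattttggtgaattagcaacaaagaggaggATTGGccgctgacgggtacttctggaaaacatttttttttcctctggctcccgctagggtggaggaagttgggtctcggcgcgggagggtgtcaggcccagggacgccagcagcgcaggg
Kmt5c held CCAAT 2 times, Ehmt2 held GGGCGG 2 times, Setd3 held CCAAT 3 times and GGGCGG 7 times, with overlaps among the latter, and Kat2b held CCAAT 1 time. A window was found for 58 of the 70 members. CCAAT stood in 2 of 5 windows of members higher in both cohorts and 9 of 29 of those lower in both, beside 37.8% of the windows of all genes tested, and GGGCGG in 2 of 5 and 19 of 29, beside 60.4%. TTTGGCGC (E2F), TTC and GAA spaced by 4 bases (STAT6) and TGACGTCA (CRE) stood in 0, 0 and 0 of the 5 and in 0, 0 and 1 of the 29, beside 0.929%, 5.31% and 2.94%. The median number of CG dinucleotides was 22 in the windows of higher and 21 in those of lower members, beside 19 in all. With 5 windows on the higher side, no difference between these counts was tested.

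The H3K27 methyltransferases of PRC2 were not called in RPM. Ezh1 was 77.7 to 94.9 RPM (median 86.95) in Sham and 69.7 to 90.1 RPM (median 87.7) in PM, 67.6, 68.4, 108, 76.1 and 73.7 RPM in Sham-OVA and 65.5, 83.5, 89.5 and 75.2 RPM in PM-OVA libraries, and its log2 fold changes were -0.14 ± 0.13 and -0.13 ± 0.12, which turned positive under the 3 other scalings, also without a call. Ezh2, whose mRNA is known to be high in dividing cells, was 6.91 to 14.4 RPM (median 10.3) in Sham and 8.99 to 15.7 RPM (median 10.1) in PM, 27.9, 18.1, 6.52, 20.3 and 16.8 RPM in Sham-OVA and 14.3, 14.5, 6.51 and 11.4 RPM in PM-OVA. The groups overlapped in both cohorts. The log2 fold change of Ezh2 was 0.63 ± 0.29 in Sham offspring (adjusted p = 0.0622) and 0.09 ± 0.23 in PM offspring (adjusted p = 0.742), and it was called higher in Sham offspring under the 3 other scalings and in PM offspring under quantile normalisation and length correction. Summed RPM of 10 markers of proliferating cells was 28.4 to 51.6 in Sham and 115 to 339.7 in Sham-OVA libraries, and 27.6 to 123 in PM and 95.5 to 198 in PM-OVA libraries, where the ranges overlapped, with all 10 markers higher in mean in both cohorts, and the part of dividing cells in the level of Ezh2 was not tested.

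Lysine demethylases were mostly lower. In Sham offspring 12 of 16 were lower and in PM offspring 13, beside 47.5% and 45.2% of all genes, and 0 were higher by limma in either, although Kdm1a was higher in both with all 3 other scalings, and 5 were higher in each cohort with length correction, where 31.6% and 29.4% of all genes were (Kdm1a, Kdm2a, Kdm5b and Kdm7a in both, Kdm5c in Sham and Kdm6b in PM offspring). With length correction 6 were lower in Sham and 5 in PM offspring, beside 31.7% and 29.6% of all genes. Kdm7a, called lower in PM offspring at -0.33, turned positive there under all 3 other scalings. Kdm2b, which demethylates H3K36 and brings a form of PRC1 to CpG islands, was 5.50 to 12.7 RPM (median 9.30) in Sham and 7.63 to 13.2 RPM (median 10.3) in PM. It was 0.625, 0.451, 0, 0.398 and 0.730 RPM in Sham-OVA and 5.98, 1.47, 0 and 0.182 RPM in PM-OVA, below the saline libraries of the same cohort. The log2 fold changes were -3.40 ± 0.25 (adjusted p = 8.35e-08) and -2.89 ± 0.54 (adjusted p = 0.000663), and in PM offspring -3.61 when PM-OVA replicate 1 was left out and -1.58 when the 3 shallowest libraries were. Of its 50-base stretches 12.5% are shared with another gene.

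Kdm3b, an eraser of H3K9 mono- and dimethylation, was 42.7 to 77.3 RPM (median 61.8) in Sham and 42.96 to 74.01 RPM (median 64.9) in PM, and 9.24, 7.75, 2.49, 7.89 and 5.26 RPM in Sham-OVA and 27.3, 8.66, 2.12 and 2.18 RPM in PM-OVA. Its log2 fold changes were -3.24 ± 0.26 (adjusted p = 1.41e-07) and -3.24 ± 0.52 (adjusted p = 0.000264), without overlap. Its paralog Kdm3a was lower at -0.74 and -0.68, but at 0.16 and 0.22 with length correction. In PM offspring the log2 fold change of Kdm3b was -3.94 when PM-OVA replicate 1 was left out and -1.94 when the 3 shallowest libraries were. Antisense genes cover 24.6% of the exon bases of Kdm3b, and whether strand was used in counting is not given in the sources used here.

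Kdm4c, an eraser of H3K9 trimethylation, was 33.6 to 37.97 RPM (median 35.04) in Sham and 32.4 to 39.05 RPM (median 37.1) in PM, and 20.1, 20.2, 7.46, 20.7 and 17.9 RPM in Sham-OVA and 33.8, 25.04, 8.50 and 7.63 RPM in PM-OVA. It was lower in both cohorts, at -1.10 ± 0.22 and -1.19 ± 0.34, yet PM-OVA replicate 1 overlapped PM, and without the 3 shallowest libraries the value in PM offspring was -0.30 (adjusted p = 0.0729). Kdm2a, the H3K36 demethylase related to Kdm2b, was 124 to 138 RPM (median 135) in Sham and 97.7, 95.9, 67.7, 96.6 and 78.7 RPM in Sham-OVA, and 124 to 140.1 RPM (median 134) in PM and 119, 81.8, 68.1 and 97.7 RPM in PM-OVA. It was lower by 0.61 and 0.56 in RPM without overlap, but higher by 0.50 and 0.53 after length correction, so that its direction depends on the scaling. Kdm5b turned in the same way, from -0.73 and -0.75 to 0.41 and 0.38.

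The X-linked demethylases Kdm5c (H3K4) and Kdm6a (H3K27) are known to escape X inactivation. Kdm6a was 51.3 to 77.1 RPM (median 61.7) in Sham and 49.8 to 70.7 RPM (median 66.1) in PM, and 33.4, 22.4, 17.1, 29.2 and 24.2 RPM in Sham-OVA and 39.8, 29.99, 10.5 and 15.6 RPM in PM-OVA, lower by 1.33 ± 0.17 and 1.57 ± 0.29 without overlap. With length correction the fall of Kdm6a was called in PM but not in Sham offspring. Kdm5c was 80.3 to 123 RPM (median 106) in Sham and 112 to 133 RPM (median 116) in PM, and 80.95, 92.9, 85.8, 93.8 and 75.8 RPM in Sham-OVA and 100.4, 80.8, 73.6 and 83.5 RPM in PM-OVA. It was called lower in PM offspring alone, at -0.48 ± 0.12 (adjusted p = 0.0029), beside -0.26 ± 0.13 in Sham offspring, and both values turned positive (0.53 and 0.27) after length correction. The lowest Sham value of both genes, 80.3 and 51.3 RPM, came from Sham replicate 1, the library with Y-linked reads. Kdm6b, the inducible H3K27 demethylase, with the highest mean RPM of its class over all libraries, was 101 to 140.2 RPM (median 123) in Sham and 72.6, 100.2, 214, 109 and 99.99 RPM in Sham-OVA, and 94.3 to 126 RPM (median 112) in PM and 91.6, 126, 196 and 141 RPM in PM-OVA, with overlap in both cohorts and no call in RPM, while in PM offspring it was called higher under the 3 other scalings.

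Zinc-dependent deacetylases were called in both directions. In Sham offspring 2 were higher and 4 lower, and in PM offspring 2 and 3, of 11. Of all genes, 20.6% were higher and 47.5% lower in Sham offspring, and 20.1% and 45.2% in PM offspring. Hdac9, a class IIa enzyme that binds MEF2 factors, had the largest rise of all members in Sham offspring. Its level was 3.42 to 6.07 RPM (median 3.93) in Sham and 3.17 to 7.04 RPM (median 5.32) in PM, against 16.96, 15.1, 31.4, 16.6 and 11.98 RPM in Sham-OVA and 10.3, 10.4, 18.9 and 23.2 RPM in PM-OVA libraries. All 9 OVA values exceeded all 14 saline values, and the log2 fold changes were 1.88 ± 0.23 (adjusted p = 6.95e-06) and 1.49 ± 0.28 (adjusted p = 0.000726), or 1.68 and 0.998 without the 3 shallowest libraries. Its transcript of 7940 bases lies in the range of 5000 to 8000 bases, where the median of all genes was -0.975 in Sham offspring.

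The other class IIa enzymes did not follow. Hdac5 fell by 1.71 ± 0.18 and 1.29 ± 0.20, without overlap. Hdac7, the deacetylase with the highest RPM and a gene known from endothelium and thymocytes, was 234 to 256 RPM (median 249) in Sham and 234, 189, 204, 226 and 212 RPM in Sham-OVA, and 181 to 273 RPM (median 231) in PM and 193, 242, 218 and 224 RPM in PM-OVA libraries, and its log2 fold changes of -0.21 ± 0.11 and -0.08 ± 0.13 were not called. Hdac4 was 38.6 to 56.04 RPM (median 42.1) in Sham and 33.8, 35.8, 55.6, 33.6 and 36.96 RPM in Sham-OVA, and 38.3 to 57.8 RPM (median 45.6) in PM and 31.7, 41.1, 51.6 and 49.2 RPM in PM-OVA. The groups of Hdac4 overlapped, and its values of -0.22 and -0.16 turned to 0.69 and 0.71 after length correction. Per kilobase, Hdac7 stood at 47.5 RPM per kb in Sham libraries, ahead of Hdac2 at 15.9, and Hdac9 was the lowest of the class at 0.559 RPM per kb.

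Hdac3, the catalytic subunit of the NCoR corepressor complex, was 31.4 to 60.7 RPM (median 38.4) in Sham and 32.4 to 44.8 RPM (median 36.2) in PM. It was 89.9, 67.1, 72.7, 88.1 and 83.3 RPM in Sham-OVA and 51.1, 78.98, 81.8 and 93.7 RPM in PM-OVA, above all saline libraries of its cohort. It rose by 1.00 ± 0.16 in Sham offspring (adjusted p = 9.19e-05) and 0.98 ± 0.16 in PM offspring (adjusted p = 0.000343). Of the other class I enzymes, Hdac2 was not called in RPM, at 0.05 and -0.17, but was called higher in Sham offspring under the 3 other scalings and in PM offspring with length correction (0.53), and Hdac1 was lower in both cohorts, by 2.08 ± 0.24 in Sham offspring (adjusted p = 4.23e-06) and with an adjusted p of 0.00156 in PM offspring. Hdac1 was listed at only 1.10 to 3.29 RPM (median 2.95) in Sham, and 58.7% of its 50-base stretches are shared with Gm10093, so its level and its fall are uncertain.

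The X-linked Hdac6, a tubulin deacetylase, and Hdac8 were not called. Hdac6 was 10.98 to 17.9 RPM (median 13.6) in Sham and 12.6, 11.9, 4.66, 15.4 and 10.9 RPM in Sham-OVA, and 11.2 to 15.02 RPM (median 13.00) in PM and 15.9, 12.4, 7.70 and 8.53 RPM in PM-OVA, at -0.36 ± 0.25 and -0.24 ± 0.20, and the second value turned to 0.38 after length correction. Hdac8 was 9.31 to 15.4 RPM (median 10.4) in Sham and 13.8, 9.33, 3.42, 10.9 and 8.11 RPM in Sham-OVA, and 7.57 to 12.2 RPM (median 9.79) in PM and 13.03, 11.8, 3.05 and 4.54 RPM in PM-OVA, at -0.33 ± 0.27 and -0.46 ± 0.33. The saline and OVA libraries of both genes overlapped. Hdac10 was called lower in RPM in Sham offspring alone, at -1.07 ± 0.41, and leaving out Sham replicate 2, 3 or 7 ended that call. With length correction Hdac10 was called lower in both cohorts, and with median-of-ratios scaling and quantile normalisation in neither. Hdac11 is described with the maternal comparisons.

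Among the sirtuins, which use NAD, Sirt1 fell and Sirt7 rose. Sirt1, the nuclear deacetylase of many transcription factors, was 45.1 to 49.6 RPM (median 47.5) in Sham and 42.5 to 55.8 RPM (median 46.1) in PM, and 21.6, 13.8, 1.24, 18.4 and 15.2 RPM in Sham-OVA and 28.6, 18.4, 3.98 and 4.72 RPM in PM-OVA. It lay below all saline libraries, at -2.11 ± 0.47 and -2.15 ± 0.42, and at -1.45 in Sham offspring without Sham-OVA replicate 3, whose level was 1.24 RPM. Sirt7, the nucleolar H3K18 deacetylase, with the highest mean RPM of its class over all libraries, was 49.1 to 88.8 RPM (median 59.98) in Sham and 93.7, 77.6, 77.98, 84.6 and 82.02 RPM in Sham-OVA, and 49.6 to 60.04 RPM (median 58.3) in PM and 70.8, 80.4, 76.5 and 79.7 RPM in PM-OVA. Its rise was small, 0.39 ± 0.15 with overlap in Sham offspring and 0.44 ± 0.11 without overlap in PM offspring, and in Sham offspring it was lost without Sham replicate 1, 2, 5 or 6 or Sham-OVA replicate 1 or 4 (adjusted p of 0.0512 to 0.0687). Sirt2 had the highest level of the class per kilobase, 32.2 RPM per kb in Sham libraries, ahead of Sirt7 at 19.6.

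Of the mitochondrial sirtuins, Sirt4 was 12.7 to 20.8 RPM (median 16.1) in Sham and 10.1, 6.85, 1.86, 7.41 and 7.60 RPM in Sham-OVA, and 11.8 to 14.8 RPM (median 12.9) in PM and 9.74, 9.58, 5.58 and 5.81 RPM in PM-OVA, lower by 1.36 ± 0.30 and 0.76 ± 0.18 without overlap. Sirt3, the main deacetylase of mitochondria, was 10.5 to 16.6 RPM (median 13.02) in Sham and 7.50, 6.54, 4.66, 8.84 and 7.52 RPM in Sham-OVA, and 10.1 to 13.4 RPM (median 11.3) in PM and 9.34, 14.8, 8.10 and 5.27 RPM in PM-OVA. It was called in Sham offspring alone, at -0.88 ± 0.19 beside -0.37 ± 0.23 (adjusted p = 0.162), which was 0.17 with length correction. Sirt5 was called in neither.

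Lysine acetyltransferases were mostly lower in RPM, 6 of 8 in each cohort, beside 47.5% of all genes in Sham and 45.2% in PM offspring. With length correction 2 of 8 were lower in Sham and 3 in PM offspring, beside 31.7% and 29.6% of all genes. Kat2a was called higher in Sham offspring, at 0.48 ± 0.14. In PM offspring Kat2a was called higher under the 3 other scalings but not in RPM (0.32 ± 0.15). Kat2b, also known as PCAF, was 3.94 to 10.6 RPM (median 7.50) in Sham and 4.40 to 8.64 RPM (median 7.51) in PM. It was 0.417, 0.376, 0, 0.159 and 0.219 RPM in Sham-OVA, from 6, 5, 0, 2 and 3 reads, and 2.22, 0.541, 0.266 and 0.182 RPM in PM-OVA, from 33, 7, 2 and 1 reads. All OVA libraries lay below all saline ones, at -3.38 ± 0.24 (adjusted p = 5.53e-08) and -2.83 ± 0.34 (adjusted p = 5.38e-05), and at -2.22 in PM offspring without the 3 shallowest libraries. Of its 50-base stretches 7.75% are shared with another gene.

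The MYST acetyltransferases fell in RPM except Kat5. With length correction Kat6b and Kat7 were not called in either cohort. In PM offspring the fall of Kat7 was called under none of the other scalings. Kat6a, the member of its class with the highest RPM and a relative of Kat6b, was 131 to 207 RPM (median 181) in Sham and 129 to 227 RPM (median 199) in PM, and 79.6, 80.3, 63.4, 85.3 and 76.5 RPM in Sham-OVA and 100.4, 83.3, 66.8 and 66.1 RPM in PM-OVA. It fell by 1.16 ± 0.14 and 1.28 ± 0.17 without overlap, but its transcript is long, 9113 bases, and after length correction it was at 0.00 in Sham offspring and no longer called in PM offspring. Kat8, which acetylates H4K16, fell by 1.71 ± 0.24 and 1.75 ± 0.38 without overlap and under all 4 scalings. Kat5, also called Tip60, had log2 fold changes of 0.01 ± 0.14 and 0.08 ± 0.13, and was called higher in both cohorts with median-of-ratios scaling and quantile normalisation. The summed level of the 5 MYST enzymes was 258 to 352 RPM in Sham and 122 to 199 RPM in Sham-OVA libraries.

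Of the 8 arginine methyltransferases 2 were lower in each cohort, beside 47.5% of all genes in Sham and 45.2% in PM offspring. The lower ones were Prmt6 and Prmt9, at -0.65 and -1.38 in Sham and -0.61 and -1.34 in PM offspring. Under the other scalings, Prmt6 was not called in Sham offspring and was called lower in PM offspring only with length correction. Prmt9 was not called in either cohort with length correction. Prmt8 was called higher in Sham offspring, at 1.12 ± 0.25 beside 0.74 ± 0.41 in PM offspring. In PM offspring Prmt8 was called with median-of-ratios scaling and quantile normalisation. Prmt9 fell by 0.75 without Sham-OVA replicate 3, where it was 0.621 RPM. Prmt2, the member with the highest RPM, was 41.97 to 70.97 RPM (median 57.00) in Sham and 64.3, 54.5, 68.97, 63.7 and 63.5 RPM in Sham-OVA, and 49.1 to 76.1 RPM (median 57.8) in PM and 46.96, 58.3, 62.00 and 70.4 RPM in PM-OVA, with overlap throughout and log2 fold changes of 0.16 ± 0.14 and 0.02 ± 0.15. Prmt5, which makes symmetric dimethylarginine, and Prmt7 were not called in RPM but were called higher in both cohorts with median-of-ratios scaling and quantile normalisation. Prmt2 was called higher under both of these in Sham offspring. With them 5 of 8 were higher in Sham offspring, beside 29.2% and 32.7% of all genes. In PM offspring 3 and 4 were, beside 28.9% and 31.5%. The summed level of the class was 123 to 163 RPM in Sham and 119 to 186 RPM in Sham-OVA libraries, overlapping.

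The size of the change varied from one OVA library to the next. The median log2 difference of the 70 members from the mean of the saline group of the same cohort was -1.47 in Sham-OVA replicate 3, and -0.53 to -0.70 in the other 4 Sham-OVA libraries. It was -1.06 and -1.13 in PM-OVA replicates 3 and 4, against -0.28 and -0.42 in PM-OVA replicates 1 and 2. The saline libraries lay between -0.08 and 0.09. All genes tested were graded in the same way, from -0.09 in PM-OVA replicate 1 to -1.03 in Sham-OVA replicate 3, and 41 to 45 of the 70 members lay below the median of all genes in every OVA library, within the 12 to 54 of the saline libraries. The libraries with the largest differences were those with the fewest reads. With all libraries thinned to 2298645 reads, the depth of the shallowest, 41 members were lower and 7 higher in Sham offspring (42.3% and 18.7% of all genes) and 38 and 6 in PM offspring (39.1% and 16.8%). Without the 3 shallowest libraries, 45 were lower and 12 higher in Sham offspring (47.2% and 25.1% of all genes) and 34 and 7 in PM offspring (31.3% and 19.7%). In this setting PM-OVA rested on replicates 1 and 2 alone. Many falls in PM offspring were then smaller by more than 1.5 times but still called, among them Kmt2b (-1.05), Kmt2d (-0.73), Kmt5b (-1.30), Ehmt1 (-0.57), Kdm6a (-0.87), Hdac1 (-0.82), Sirt1 (-1.01), Sirt4 (-0.40) and Kat8 (-0.80), as was the rise of Ehmt2 (0.48). The calls of Kdm3a (-0.24), Kdm4a (-0.07), Kdm4c (-0.30), Hdac11 (-0.34), Kat7 (-0.18) and Prmt9 (-0.56) were lost in PM offspring. In Sham offspring, the log2 fold change of Hdac10 was -0.54, that of Prmt6 -0.41 and that of Kdm1b -0.92 when Sham-OVA replicate 3 was left out. What else set the shallow libraries apart was not tested.

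**Figure D3:**
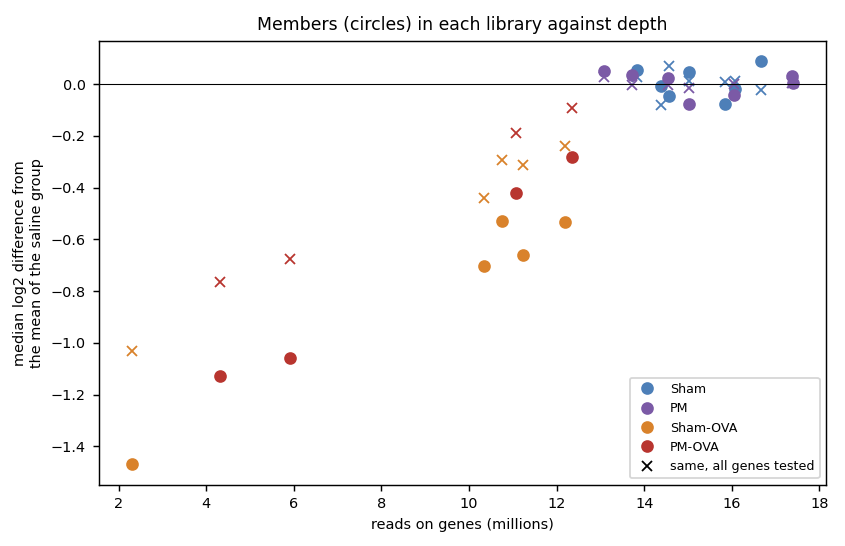
Median log2 difference of the 70 members (circles) and of all genes tested (crosses) from the mean of the saline group of the same cohort, in each library, against reads on genes in units of 1000000. The 14 saline libraries lie within -0.08 and 0.09 for the members, and the OVA libraries fall with depth to -1.47 in the shallowest.

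Transcript length went with the change. Over the 70 members, Spearman's rho between log2 fold change and length of the longest transcript was -0.32 in Sham and -0.38 in PM offspring, beside -0.36 and -0.39 over 16535 genes, where the points share libraries. Members lower in Sham offspring had a median transcript of 5180 bases, those higher 3272 and those not called 2937. For transcripts over 8000 bases the median of the 12 members was -1.12 in Sham offspring, beside -1.22 for all genes, and under 3000 bases that of the 21 members was -0.22 beside -0.08. The cause of the trend with length was not tested.

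**Figure D4:**
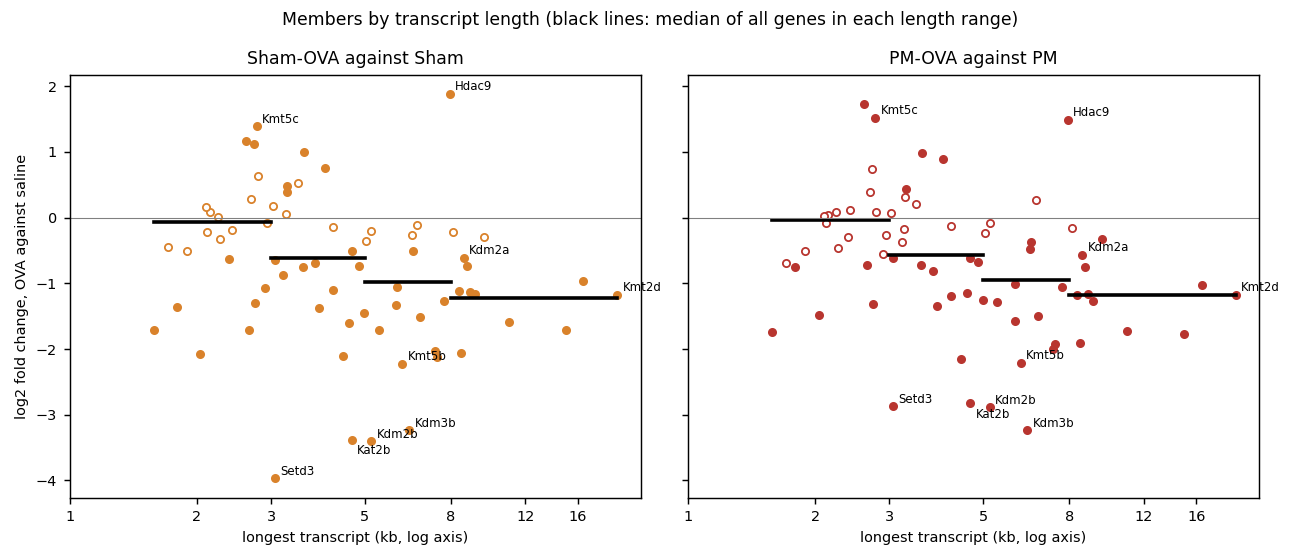
Log2 fold change after OVA of the 70 members against the length of their longest transcript in kb (log axis), in Sham offspring (left) and PM offspring (right), with open points for members that were not called. Black lines give the median of all genes tested in 4 length ranges, which falls from -0.08 to -1.22 in Sham offspring.

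Among partners of the enzymes and enzymes outside the naming rule, counts are to be read beside the 47.5% and 45.2% of all genes that were lower and the 20.6% and 20.1% that were higher in Sham and PM offspring, and their differences were not tested. Of 14 partners in COMPASS and MLL complexes, 6 were lower and 4 higher in each cohort, the latter Rbbp5, Dpy30, Pagr1a and Psip1, with medians of -0.36 and -0.17. Of 10 PRC2 partners, 5 were lower and 2 higher in Sham offspring and 6 and 2 in PM offspring, and of 17 PRC1 subunits 9 and 3, and 8 and 3. Of 25 partners in deacetylase corepressors, 15 were lower in each cohort, among them Ncor1, which binds Hdac3, and 6 and 5 were higher, among them Sin3b, Suds3, Mta2 and Mbd3 in both. Of 26 acetyltransferases and partners outside the naming rule, 16 and 18 were lower, with Ep300 and Crebbp among them, and 2 (Hat1 and Tada2a) were higher in each. Of 20 other methyltransferases 13 and 12 were lower and 1 higher in each (Suv39h1 in Sham and Carm1 in PM offspring), of 9 other demethylases 4 and 5 were lower and 2 and 1 higher, and of 17 readers of acetyl-lysine 12 were lower and 2 higher in each (Brd7 and Trim28). In the maternal comparisons limma called 0 genes of these lists, as it called 0 of all genes.

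Cell type markers moved with the OVA groups as well. Summed RPM of 8 markers of interstitial and recruited macrophages was 165 to 319 in Sham and 1728 to 2628 in Sham-OVA, and 261 to 446 in PM and 1575 to 2232 in PM-OVA, with all 8 higher in mean. For 8 plasma cell markers the ranges were 365 to 570, 7494 to 12720, 402 to 544 and 6817 to 11140, with 7 of 8 higher. For 8 fibroblast markers they were 4603 to 6570, 1383 to 3965, 5318 to 7173 and 1745 to 5090, and for 8 alveolar type 1 markers 5947 to 8473, 3394 to 4981, 7180 to 7715 and 4173 to 5158. Of the fibroblast markers 2 were higher in mean in Sham-OVA and 0 in PM-OVA, and of the alveolar type 1 markers 2 were higher in each. No marker of any list was at 0 in every library. The part of these cells in the members' changes was not tested.

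Maternal PM2.5 alone changed no member past the threshold. In PM against Sham, limma called 0 of 70 members and 0% of all genes tested, and 3 members had an unadjusted p under 0.05, where 4.35% of all genes did. At that level edgeR gave 4 members (4.66% of all genes) and DESeq2 3 (5.02%), with 0 members called by either. Sirt4 had the smallest p, at -0.32 ± 0.10 (SE) with 7 libraries a group (unadjusted p = 0.00471, adjusted p = 0.898), followed by Kdm5c at 0.20 ± 0.09 (SE) and Prmt7 at 0.22 ± 0.10 (SE), both with an adjusted p of 0.898. The levels of Sirt4 and of Kdm5c and Prmt7 overlapped between the groups. Without Sham replicate 1, the unadjusted p of Kdm5c was 0.0879 and that of Prmt7 0.0911. No member was without overlap between the groups, where 0% of all genes were higher and 0.00595% lower in that way. All 70 differences lay between -0.36 and 0.35.

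In PM-OVA against Sham-OVA, limma again called 0 members and 0% of genes, with 1 member and 1.86% of all genes at an unadjusted p under 0.05. At that level edgeR gave 3 members (2.8% of all genes) and DESeq2 3 (3.47%), with 0 members called. Hdac11, the class IV enzyme, was 17.6 to 30.6 RPM (median 23.6) in Sham and 15.5 to 25.1 RPM (median 20.5) in PM, and 8.20, 5.12, 4.35, 6.21 and 10.9 RPM in Sham-OVA and 15.8, 15.7, 9.43 and 8.72 RPM in PM-OVA. The OVA groups overlapped in their middle, and the difference was 0.81 ± 0.34 (SE) (unadjusted p = 0.0381, adjusted p = 1.00). Setd3 and Kat2b followed at 0.98 ± 0.52 (SE) and 0.62 ± 0.40 (SE), both with an adjusted p of 1.00 and both with their highest OVA level in PM-OVA replicate 1. With 5 and 4 libraries of unequal depth the 95% intervals were wide, and those of 29 of the 70 members reached past 1 or -1 on the log2 scale.

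The interaction asks whether OVA changed a gene by a different amount in PM than in Sham offspring. Limma called 0 members and 0% of genes. At an unadjusted p under 0.05 there was 1 member (5.08% of all genes), and there were 9 by edgeR (8.26% of all genes) and 10 by DESeq2 (9.49%), with 0 members called by either. Hdac11 fell by 1.72 ± 0.23 in Sham and by 0.72 ± 0.20 in PM offspring, a difference of 0.99 ± 0.31 (SE) (unadjusted p = 0.00418, adjusted p = 0.643, and 0.0287 to 1.00 over the alternatives). Setd3 differed by 1.10 ± 0.55 (SE) and Sirt3 by 0.51 ± 0.28 (SE), with adjusted p of 1.00 for both. Antisense genes cover 17.9% of the exon bases of Hdac11.

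The interaction turned on the treatment of single libraries. With array weights 26 members were called, 22 of them with a lower change in PM offspring (23.6% of all genes) and 4 with a higher one (3.88%). The weights were 0.0582 for Sham-OVA replicate 3 and 0.888 to 2.48 for the other Sham-OVA libraries. They were 0.0726 and 0.154 for PM-OVA replicates 1 and 2, and 0.963 and 0.438 for the shallow PM-OVA replicates 3 and 4. Leaving out the 3 shallowest libraries kept only replicates 1 and 2 of PM-OVA. In that setting 5 members were called, all with a higher change in PM offspring (3.64% of all genes): Kdm4c, Kdm2b, Hdac11, Kmt2b and Kdm4b. The sign of the interaction of Kdm4c thus went from -1.004 to 0.539, and no direction of the interaction is read from these 9 OVA libraries.

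**Figure D5:**
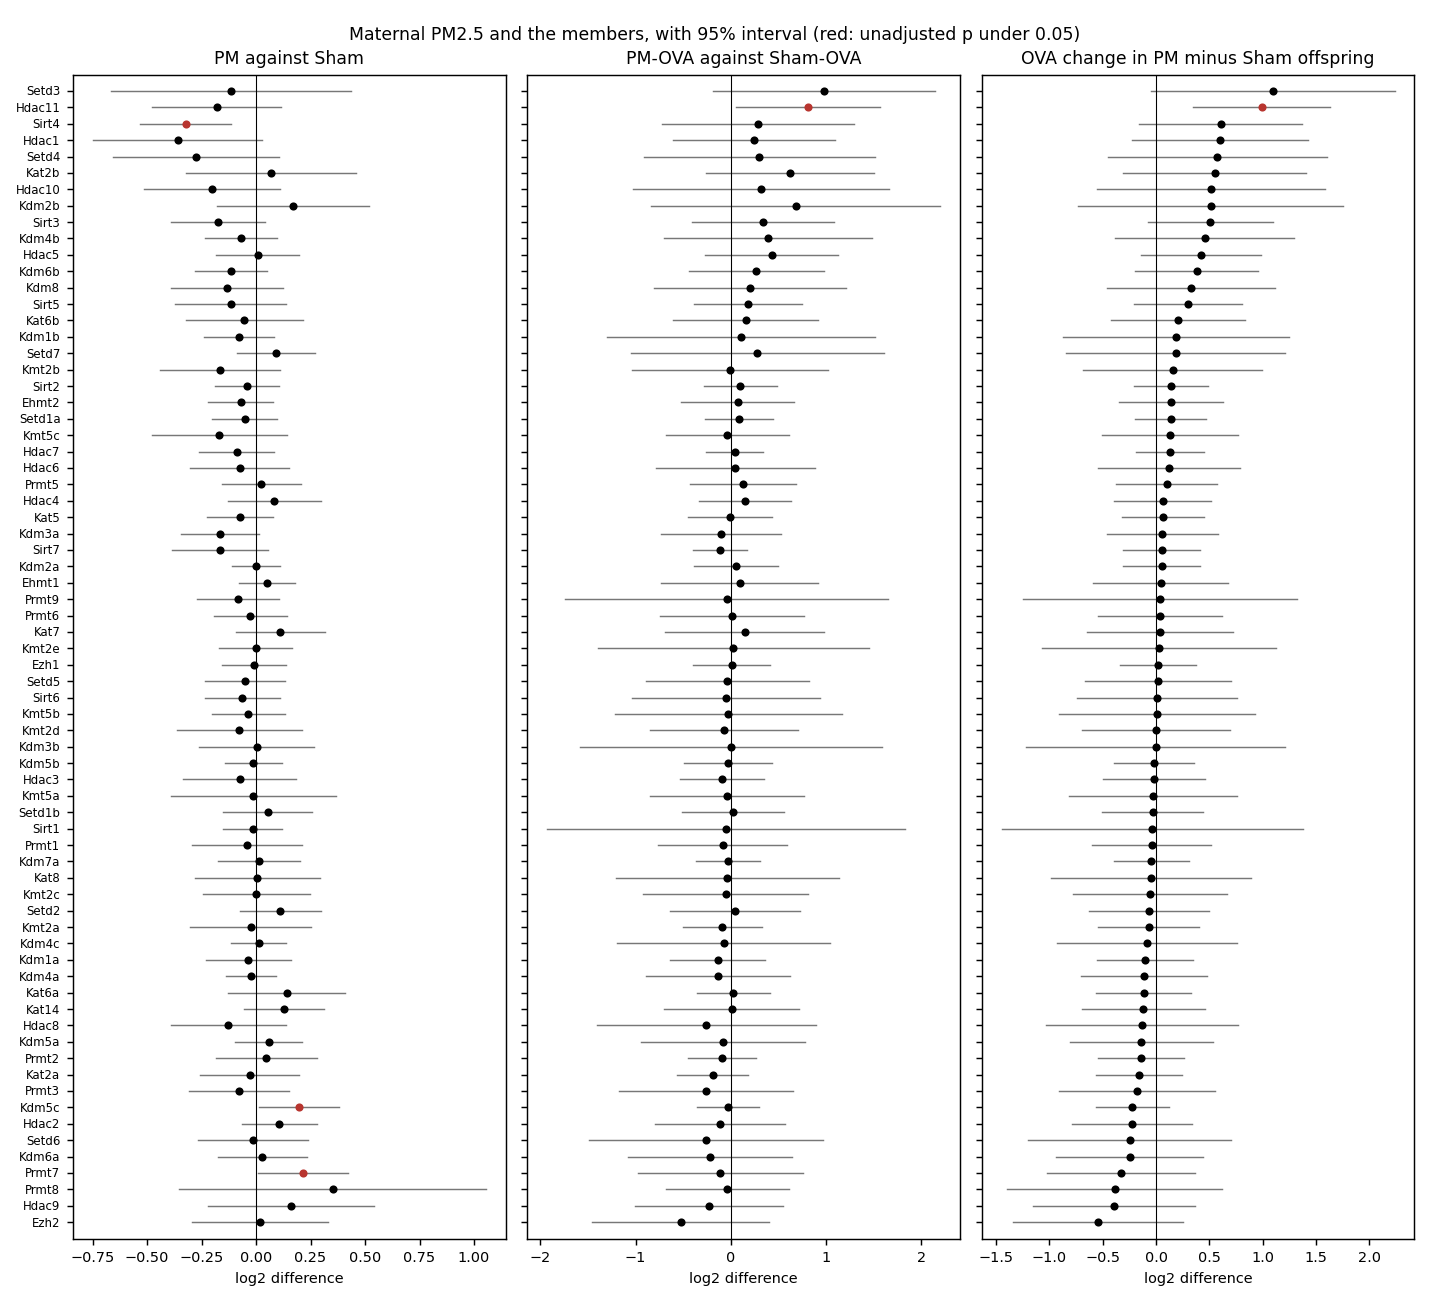
Log2 differences of the 70 members with 95% intervals for PM against Sham (left), PM-OVA against Sham-OVA (middle) and the interaction, the change after OVA in PM offspring minus that in Sham offspring (right). Red points have an unadjusted p under 0.05 (3, 1 and 1 members) and 0 passed the adjusted threshold, with horizontal scales that differ between panels.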

How the data were processed

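RNA was measured by RNA-Seq of polyA RNA in 23 lung libraries. Per the labels and the methods of the study, a stranded mRNA kit and single-end reads were used, and reads were trimmed, mapped to mm10 and quantified in SeqMonk. The annotation, the strand setting and the regions counted are not given in the sources used here. The authors deposited 1 table of RPM (reads per 1000000 reads), which is named RPKM although its values are not divided by gene length: at least 99.99% of the values in each library were whole multiples of 1 read (tolerance 0.02). The planned analysis had assumed RPKM, and the test for such values was kept.

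Genes that reached 0.5 RPM in 4 or more libraries entered limma 3.58.1 (trend, R 4.3.3) as log2(RPM + 0.5), with Benjamini-Hochberg adjustment over all 16795 genes and a threshold of 0.05. Fold changes on this scale understate those of low genes. Sham-OVA was compared with Sham, PM-OVA with PM, PM with Sham and PM-OVA with Sham-OVA, each in a fit of its 2 groups, and the interaction used all 23 libraries. The members and gene lists were chosen with earlier results of these data known. Alternatives were other pseudocounts, filters, scalings and fits, edgeR 4.0.16 and DESeq2 1.42.0 on the recovered reads, each replicate left out, and, chosen after the data were seen, thinning to 1 depth and leaving out the 3 shallowest libraries. The scripts were tested on simulated data. Transcript lengths and shared stretches of 50 bases came from a GENCODE annotation of GRCm38, with a length for 98.5% of the genes tested.

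Values by library were given, by rule, for 30 members: those with the largest non-overlapping rises and falls (5 of each per cohort), the 3 with the smallest p in each maternal comparison and in the interaction, Kdm2a, Kdm4c, Hdac4, Hdac7 and Hdac9, which the discussion of the study names, Ezh1, Ezh2, Ehmt1, Ehmt2, the X-linked members, and the member with the highest mean RPM of each class. Sirt1, Hdac1 and Kmt5a were added after their values were seen. Reads on genes ranged from 2298645 to 17393579 a library, and a count of 0 allows 3 reads, for counting error only.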

Additional observations from a re-analysis of the deposited data

Results flagged for a closer look

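Of 120 groups of 4 to 7 libraries examined over the 30 members given by library, 18 had 1 library far from the rest (a gap to the nearest library above Dixon's 95% critical value, as a share of the range), where chance flags about 1 in 20 groups. Of these, 10 came from Sham-OVA replicate 3, the shallowest library, at 2298645 reads. It was the highest of its group for Hdac9 (31.38 RPM), Kmt5c (181.4), Ehmt2 (244.8), Setd4 (28.89), Hdac4 (55.61), Ezh1 (107.8) and Kdm6b (213.8). It was the lowest for Prmt7 (5.592 RPM), Kdm4c (7.457) and Ehmt1 (11.19). In PM replicate 5, Ehmt2 (109.5 RPM), Ezh2 (15.73) and Prmt2 (76.12) were the highest of 7 and Kat2b (4.402) and Ezh1 (69.72) the lowest, and the same library had the highest summed RPM of proliferation markers among the saline libraries, 122.9 beside 27.6 to 56.8 in the other 13. The remaining ones were Hdac3 (60.72 RPM) and Hdac8 (15.4) in Sham replicate 3 and Kdm5c (133.1) in PM replicate 4, each the highest of 7. What set these libraries apart was not tested.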

How the results depend on the processing

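Leaving out each replicate in turn gave 7 to 12 members higher and 40 to 45 lower in Sham offspring, 6 to 8 and 38 to 45 in PM offspring, and 0 in the maternal comparisons and the interaction. For members higher, the count of 8 in Sham offspring became 0 at the study's threshold, 4 with an absolute log2 fold change above 1 as a second condition, 16 with median-of-ratios scaling, 16 with quantile normalisation, 20 with length correction, 17 with edgeR and 16 with DESeq2, and the count of 6 in PM offspring became 0, 3, 14, 16, 17, 15 and 15. Of all genes, 11% and 9.89% were higher with the second condition in Sham and PM offspring, 33.2% and 30.5% with edgeR, and 31.5% and 31.7% with DESeq2. For members lower, the 41 in Sham offspring became 5 at the study's threshold and 26 with length correction, and the 40 in PM offspring became 0 at the study's threshold. Interaction calls rose from 0 to 26 with array weights and to 5 without the 3 shallowest libraries, in opposite directions. The study's threshold is stricter by construction, and for the other settings the cause was not tested. Length correction reversed Kdm5c (0.53 in Sham and 0.27 in PM offspring), Kdm2a (0.50 and 0.53), Hdac4 (0.69 and 0.71), Hdac7 in Sham (0.26), Hdac6 in PM (0.38) and Kat6a in Sham offspring (0.0019, adjusted p = 0.991). Replicate numbers are those of the sample titles. Correlations of same-numbered libraries were -0.07 to 0.12 for Sham and Sham-OVA, -0.10 to 0.06 for PM and PM-OVA, -0.25 to 0.10 for Sham and PM, and 0.60, 0.22, 0.62 and -0.31 for Sham-OVA and PM-OVA, and not every library correlated best with its own number. Most OVA libraries carry another number in their library name, and pairing by those numbers was not examined. The correlations therefore do not settle whether libraries were paired. With the replicate block, 6 members were higher and 37 lower in Sham offspring (17.3% and 42.4% of all genes). In PM offspring 6 were higher and 34 lower (13.6% and 33.9%), and 0 were called in the other comparisons. Low depth limits Setd3, Kdm2b, Kat2b, Hdac1 and Kmt5a after OVA, at a few reads a library.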

Other observations

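Summed levels of marker lists of other cell types are given here by range, with no test of a difference. Summed RPM of 8 eosinophil markers was 3.67 to 14.0 in Sham and 19.6 to 48.3 in Sham-OVA, and 4.99 to 15.8 in PM and 20.9 to 29.6 in PM-OVA libraries. Of these, 6 were higher in mean in Sham-OVA and 5 in PM-OVA. For 8 T cell markers the ranges were 73.0 to 164.5, 118 to 268, 75.3 to 126.6 and 122 to 189.7 RPM, and for 6 B cell markers 74.8 to 294, 209 to 609.9, 80.9 to 233.5 and 193.6 to 369 RPM. Of 7 natural killer cell markers, 0 had a higher mean in Sham-OVA or PM-OVA, with sums of 77.1 to 210.8 in Sham and 26.7 to 124.8 RPM in Sham-OVA, and 100 to 176.5 in PM and 41.4 to 101.5 RPM in PM-OVA. For 8 capillary endothelial markers the ranges were 1829 to 3805 in Sham, 1803 to 2545 in Sham-OVA, 1108 to 4115 in PM and 2215 to 2741 RPM in PM-OVA, which overlapped in both cohorts, with 3 markers higher in mean in each. For 8 multiciliated cell markers they were 496 to 868, 335 to 856, 460 to 729 and 534 to 1219 RPM, with 3 markers higher in mean in Sham-OVA and 6 in PM-OVA. For 6 smooth muscle markers they were 661 to 902, 958 to 1948, 582 to 1582 and 739 to 2068 RPM, with 4 markers higher in each cohort. For 7 alveolar macrophage markers they were 184 to 285, 366 to 611, 105 to 294 and 219.7 to 705 RPM, and for 8 alveolar type 2 markers 14110 to 24730, 30020 to 36820, 17210 to 31990 and 24230 to 43720 RPM, with 4 markers higher in mean in each cohort for either list.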
